A study of Mus musculus with 12 samples.

Results

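Irradiated mouse adult fibroblasts (MAFs) entered senescence with a different gene expression programme when the clock gene Bmal1 was missing, and the genotype by senescence interaction measures that difference for each gene. It is the log2 fold change from control to senescent cells in Bmal1 knockout (KO) cells less the same change in wild-type (WT) cells. A positive interaction, termed higher here, is a larger rise or a smaller fall in KO cells, and a negative one, termed lower, is a smaller rise or a larger fall. The WT and KO count tables held the same 49315 gene identifiers, and all of them were joined. Of these, 17416 had enough counts in the 12 libraries to be tested, and these genes are what is described here.

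MAFs are primary cells grown from ear tissue, here of adult female C57BL6/J mice for WT and of Bmal1-/- mice for KO, whose genotype the labels give as BMAL1 -/-. Control cells of each genotype were sham irradiated and senescent cells received 20 Gy of X-rays. All 4 groups were cultured at 3% O2, were exposed to 100 nM dexamethasone, a glucocorticoid that resets the clock, and were collected 12 h after that. Each group held 3 libraries, numbered 1 to 3, and nothing in the sources used here says that they came from separate animals, so p-values measure the spread between these samples, which may be technical. The deletion was that of the donor mice, so KO cells of both states carried it throughout culture.

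BMAL1 pairs with CLOCK, binds E-box elements and drives genes of the Period, Cryptochrome and REV-ERB families, whose products then feed back on it. Senescence is a lasting growth arrest in which cells with DNA damage stop dividing, keep p53 and its target p21 active, and secrete cytokines, growth factors and proteases, together called the senescence-associated secretory phenotype. Interferon signalling, unfolded protein responses and matrix remodelling are also known parts of the state. The comparison asks which of these functions took another course without Bmal1.

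Library totals ranged from 23923030 to 31736083 counts. Levels are given in CPM, the usual unit of counts scaled to a common library total, with each total corrected by edgeR's TMM factor. At these depths 3 counts were 0.0945 to 0.125 CPM. Arntl, the name the annotation gives Bmal1 (ENSMUSG00000055116, GRCm38 chromosome 7, 113207465 to 113314126, plus strand), stood at 29.8, 31.6 and 33.2 CPM in the control and 37.4, 35.8 and 35.2 CPM in the senescent libraries of WT cells and at 15.2, 11.8 and 12.5 CPM in the control and 27, 25.3 and 27.5 CPM in the senescent libraries of KO cells. The KO libraries all lay under the WT libraries, but the KO level rose with senescence and the interaction of Arntl itself was 0.82 ± 0.12, adjusted p 7.58e-05. The count covers all exons, and which exons the KO lacks is not given in the sources used here. Fibroblast markers were high in all groups but not level. Their sum over 9 genes was 16300 to 17100 CPM in WT control and 6630 to 6870 CPM in WT senescent libraries. It was 21100 to 22700 CPM in KO control and 8460 to 8940 CPM in KO senescent libraries. Of these 9 genes 4 were lower in the interaction and 1 was higher. Markers of macrophages (8.84 to 16.5 CPM summed over 8 genes), endothelial cells (2.39 to 8.95 CPM over 8 genes) and melanocytes (6.28 to 14.4 CPM over 6 genes) were low in every library, and those of keratinocytes summed to 30.1 to 44.4 CPM over 8 genes. Markers of adipocytes (0.121 to 2.80 CPM over 6 genes) were near the floor, and those of skeletal muscle summed to 15.4 to 59.1 CPM over 8 genes. Schwann cell markers (7 genes) summed to 55.7 to 59.0 CPM in WT control, 49.0 to 52.7 CPM in WT senescent, 37.8 to 39.0 CPM in KO control and 26.2 to 30.2 CPM in KO senescent libraries. Markers of pericytes and smooth muscle cells were not low, with sums over 8 genes of 504 to 525, 269 to 281, 439 to 502 and 322 to 323 CPM in the same order, and 3 of the 7 tested were higher in the interaction and 2 lower. The part of these cell types in the results was not tested. Chondrocyte markers were not low either, as described with the matrix genes.

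WT control replicate 3 stood apart from its group. On the second principal component of log2 CPM it lay at 4.14, against −23.4 and −26.8 for the other WT control libraries, and its profile correlated more closely with KO control replicate 1 (0.9861) than with WT control replicates 1 and 2 (0.9855 and 0.9845). Its Arntl level, 33.2 CPM, was that of a WT library. Where leaving out this or another library moved the count of a list by over 1.5 times and by at least 2 genes, the count without it is given as well.

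In the interaction 200 genes were called higher (1.15% of those tested) and 437 were called lower (2.51%), where called means an adjusted p under 0.05 and a log2 difference over 1 in size. At adjusted p under 0.05 alone, termed passed, 1609 genes were higher (9.24%) and 2030 were lower (11.7%). Without WT control replicate 3 the called counts were 346 higher and 407 lower, and 166 of the 200 and 358 of the 437 genes were still called. Without 1 library at a time the called counts ranged from 134 to 346 for higher and from 337 to 587 for lower. The median interaction over all genes tested was −0.03, so medians of gene groups below can be read almost directly as differences from the bulk of genes.

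Fewer genes passed in the interaction (9.24% higher and 11.7% lower) than with senescence itself. Such shares do not compare effect sizes, since the interaction draws on all 4 groups and has the larger standard error. Senescence changed 56.2% of genes within WT cells and 57.1% within KO cells (passed, either direction), whereas KO differed from WT in 13.0% of genes among control cells and 23.7% among senescent cells. These comparisons share libraries with the interaction and describe it only. Among the 200 genes called higher, the genotypes differed in senescent cells only for 76, in control cells only for 45 and in both with opposite signs for 24. For 185 of the 200 the KO control mean was the lower of the control means, and for 196 the KO senescent mean was the higher of the senescent means. Selection by a positive interaction favours this order, so these counts describe the selection and are not a separate result. The response passed in KO cells only for 97, went the same way in both genotypes but further in KO cells for 59, and passed in opposite directions for 20. Among the 437 genes called lower, the genotypes differed in senescent cells only for 249. The KO control mean was the lower of the control means for 77, and the KO senescent mean was the higher for 40. Here the response passed in KO cells only for 140, in WT cells only for 108 and in opposite directions for 50.

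**Figure D1:**
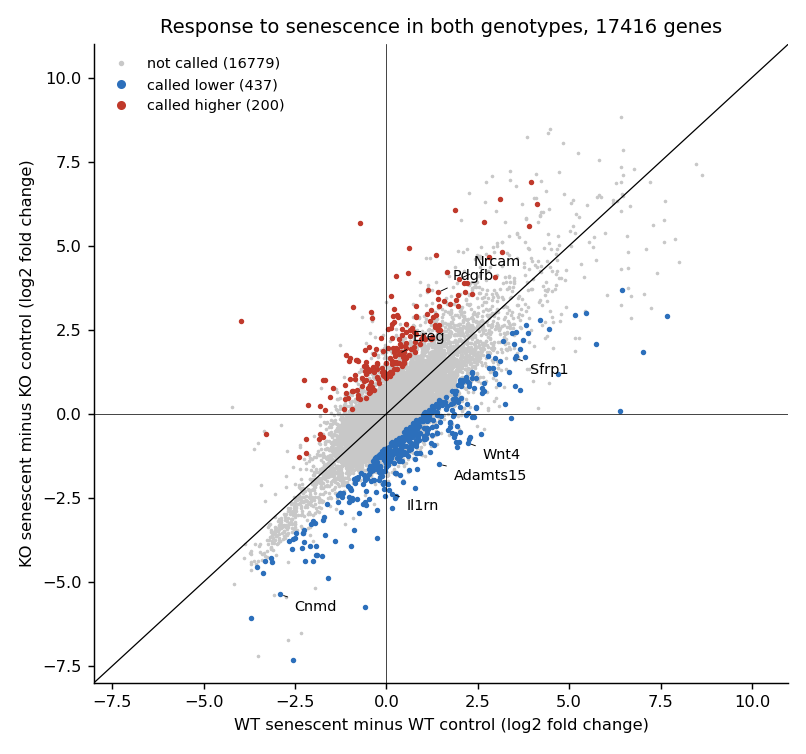
Log2 fold change from control to senescent cells in WT cells (x axis) and in KO cells (y axis), 1 point for each of the 17416 genes tested, with the 200 genes called higher and the 437 called lower in colour. Points on the diagonal responded alike, and most genes lie near it.

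A total of 56 lists of genes of known function were counted against these backgrounds, 48 of which had at least 15 members tested. The 4 of these 48 lists with the largest share of members that passed in 1 direction were cartilage matrix, the amino acid response, mitosis and class I antigen presentation. Cartilage matrix, mitosis and class I antigen presentation held no member that was higher, and the amino acid response held mostly members that were higher. Genes of a list are not independent of each other, and no test compares a list with the rest of the genes.

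**Figure D2:**
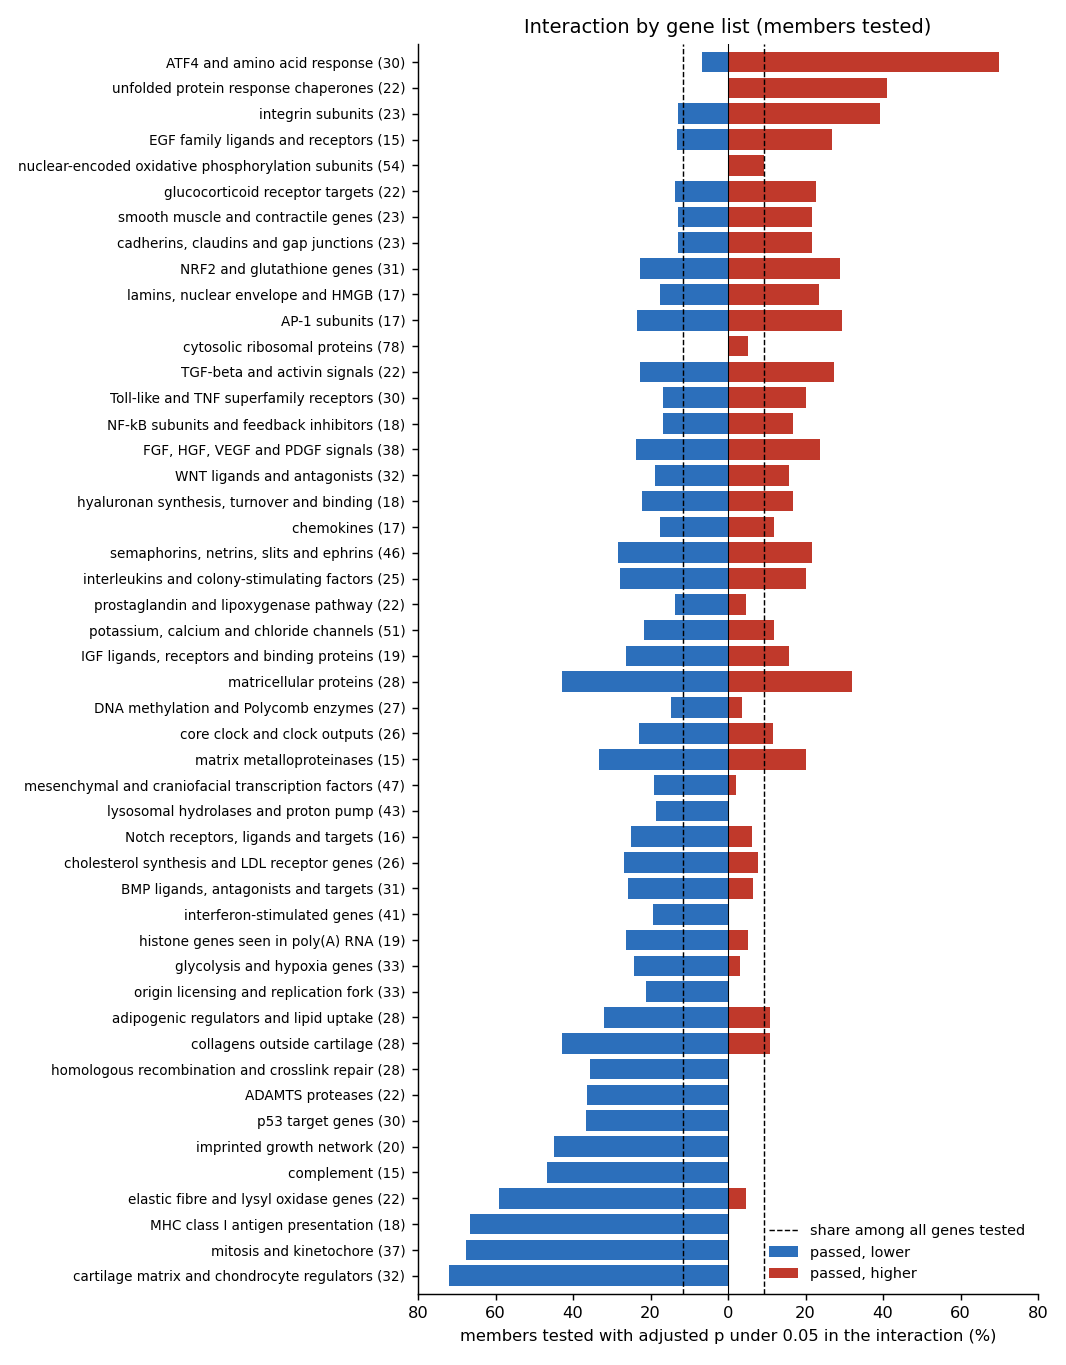
Percentage of tested members that passed the interaction at adjusted p under 0.05, lower to the left and higher to the right, for the 48 lists with at least 15 members tested. Dashed lines mark the shares over all genes, 11.7% lower and 9.24% higher, and cartilage, mitosis and class I antigen presentation reach 71.9%, 67.6% and 66.7% lower while the ATF4 list reaches 70.0% higher.

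Genes of mitosis fell further in KO cells. Of 37 genes of the spindle, the kinetochore and the chromosome condensing machinery, all 37 fell with senescence in each genotype, and 25 were lower in the interaction with none higher. At the median they fell by 2.88 in WT cells and fell by 3.62 in KO cells on the log2 scale, and the median interaction was −0.67. Among control cells the median difference of KO from WT was 0.01, and among senescent cells it was −0.61. In bulk samples, fewer dividing cells and less of these RNAs per cell cannot be told apart. The count was 30 without WT control replicate 3 and ranged from 17 (without WT senescent replicate 2) to 30 over the fits without 1 library.

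Nusap1, which bundles spindle microtubules (ENSMUSG00000027306, GRCm38 chromosome 2, 119618298 to 119651244, plus strand), was measured at 47.5, 42 and 49.4 CPM in the control and 7.08, 8.35 and 7.79 CPM in the senescent libraries of WT cells and at 63.8, 56.2 and 58.7 CPM in the control and 6.17, 5.04 and 4.39 CPM in the senescent libraries of KO cells. The KO libraries were above all WT libraries in control cells and below all of them in senescent cells, with an interaction of −0.94 ± 0.15, adjusted p 0.000141. Cenpf, a kinetochore protein, fell to 17.8 ± 1.75 CPM in WT senescent cells and to 10.4 ± 1.67 CPM in KO senescent cells (interaction −0.88 ± 0.20, adjusted p 0.00926). Cenpf was chosen after its values were seen. Levels written with ± are means ± SD of the 3 libraries of a group, and interactions are log2 differences ± standard error (SE).

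The replication machinery took part less. All 33 genes of origin licensing and the replication fork fell with senescence in each genotype, 7 were lower in the interaction and none was higher, with a median of −0.21. Mcm10, which loads polymerase at new forks, fell in WT cells from 42.9 ± 4.14 to 5.4 ± 0.549 CPM, and in KO cells from 37.1 ± 1.65 to 3.04 ± 0.567 CPM (interaction −0.62 ± 0.16, adjusted p 0.00963). This count was 12 without WT control replicate 3 and 4 without any 1 of 6 others (WT control replicate 2, WT senescent replicates 2 and 3, KO control replicates 1 and 3, and KO senescent replicate 2). Of 28 genes of homologous recombination and crosslink repair 10 were lower and none higher, with a median of −0.37. They included Exo1, the exonuclease that resects broken ends (−0.86 ± 0.24, adjusted p 0.0161; without WT senescent replicate 1 it was −0.73 with adjusted p 0.0513).

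Targets of p53, the transcription factor that holds the arrest, rose in both genotypes but several rose less in KO cells. Of 30 targets 26 rose in WT cells and 27 in KO cells, while 11 were lower in the interaction and none was higher, with a median of −0.18. The KO control level was often already raised. Among control cells 12 of the 30 were above WT and 2 below (median difference 0.19). Among senescent cells 5 were above and 6 below (0.01). Trp53inp1, a p53 cofactor of the stress response (ENSMUSG00000028211, GRCm38 chromosome 4, 11156431 to 11174379, plus strand), was measured at 36.3, 34.3 and 35.8 CPM in the control and 172, 191 and 176 CPM in the senescent libraries of WT cells and at 58, 61.7 and 62.1 CPM in the control and 164, 165 and 150.4 CPM in the senescent libraries of KO cells. The KO control libraries were all above the WT control libraries, and the KO senescent libraries were all below the WT senescent ones, and the interaction was −0.94 ± 0.08, adjusted p 2.89e-07. The secreted stress cytokine Gdf15 increased in WT cells from 0.41 ± 0.129 to 6.0 ± 0.859 CPM, and in KO cells from 1.42 ± 0.371 to 7.53 ± 0.385 CPM, and the interaction was −1.46 ± 0.34, adjusted p 0.00455. Its smaller fold in KO cells came with the higher KO control level, and the difference between the senescent groups did not pass (0.33, adjusted p 0.199). Ccng2, a cyclin of arrested cells chosen after its values were seen, fell in KO cells only (−0.91) and was −0.11 in WT cells (interaction −0.79 ± 0.11, adjusted p 4.41e-05).

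Genes that present antigen on MHC class I rose with senescence in WT cells and much less in KO cells. Class I molecules are heavy chains bound to beta-2 microglobulin that carry peptides cut by the immunoproteasome and pumped into the endoplasmic reticulum by TAP, and interferons induce most of these genes through the interferon-stimulated response element (ISRE) and related sites. Of 18 genes 12 were lower in the interaction and none was higher, with a median of −0.44. The median senescence change was 0.97 in WT cells and 0.26 in KO cells. The count was 13 without WT control replicate 3 and 10 to 14 over the fits without 1 library.

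H2-T23, the heavy chain of the non-classical molecule Qa-1 (ENSMUSG00000067212, GRCm38 chromosome 17, 36029773 to 36032855, minus strand), was measured at 14.9, 17.3 and 15.5 CPM in the control and 39.5, 47.9 and 35.7 CPM in the senescent libraries of WT cells and at 26.2, 24.5 and 24.1 CPM in the control and 27.5, 29.9 and 30.8 CPM in the senescent libraries of KO cells. The WT senescent libraries stood above all others, and the KO control libraries stood above the WT control libraries. The interaction was −1.13 ± 0.13, adjusted p 1.3e-05. H2-Q4, another heavy chain gene, rose by 1.74 in WT cells and by 0.75 in KO cells (−0.99 ± 0.15, adjusted p 0.000123), though heavy chain genes are near copies of each other and reads that map to several are dropped. Psmb8, an immunoproteasome subunit, rose by 2.07 and 1.01 (−1.06 ± 0.28, adjusted p 0.0112). Chosen after their values were seen, the peptide pump Tap1 (−0.61 ± 0.16, adjusted p 0.00971), the loading factor Tapbp (−0.86 ± 0.13, adjusted p 0.000335), the heavy chain H2-K1 (−0.41 ± 0.07, adjusted p 0.000595) and beta-2 microglobulin B2m (−0.44 ± 0.08, adjusted p 0.000947) were lower as well. Tapbp rose in WT cells (0.37) and fell in KO cells (−0.48).

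The wider set of 41 interferon-stimulated genes was less clear. Of these genes 37 rose in WT cells and 31 in KO cells, 8 were lower in the interaction and none was higher, and the median was −0.60. This count rested on single libraries. It was 23 without KO senescent replicate 3, 4 without WT control replicate 2 or without KO control replicate 2, and 5 without KO senescent replicate 1. Trim30a, a regulator of innate immune signalling (ENSMUSG00000030921, GRCm38 chromosome 7, 104409025 to 104465193, minus strand), increased in WT cells from 1.85, 1.87 and 1.22 to 11.7, 17.8 and 13.2 CPM, and in KO cells from 1.88, 1.45 and 1.67 to 3.36, 4.89 and 6.38 CPM. All WT senescent libraries exceeded all KO senescent libraries, and the interaction was −1.54 ± 0.34, adjusted p 0.00379. The guanylate binding protein gene Gbp2, a defence GTPase, was measured at 5.23, 4.19 and 5.69 CPM in the control and 18.5, 25.7 and 16.9 CPM in the senescent libraries of WT cells and at 6.16, 7.44 and 7.04 CPM in the control and 11.6, 11.8 and 17.9 CPM in the senescent libraries of KO cells. KO senescent replicate 3 overlapped the WT senescent libraries, and the interaction, −1.02 ± 0.28, adjusted p 0.021, did not pass without WT control replicate 2 (−0.91, adjusted p 0.0613), KO control replicate 2 (−0.96, 0.0672) or KO control replicate 3 (−1.01, 0.0558).

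The ISRE was searched on either strand as TTTC, 2 bases of any kind and TTTC again, and it is shown for 3 of these genes because they include the antigen presentation and interferon genes whose values were given. Sequences are RefSeq promoters of GRCm38.p6, from 250 bases before to 50 after a start site, and 12041 of the 17416 genes were matched to one. The motif was in 360 of the 12041 promoters (2.99%). It was in 5 of the 16 matched promoters of the 18 class I genes (31.2%), those of B2m, Erap1, H2-T22, H2-T23 and Psme1. The sequences run 5′ to 3′ on the gene's strand, with the motif in capitals. They lie at chr17:36032791-36032850 for H2-T23 (minus strand), chr7:104465195-104465254 for Trim30a (minus strand) and chr3:142620579-142620638 for Gbp2 (plus strand), and the motif began at positions −124, −36 and −59 from the start site. The RefSeq starts of H2-T23 and Gbp2 lie inside the gene spans of the GENCODE annotation, so that for these 2 genes the annotations place the start differently and the stretch shown is in part or whole within the GENCODE gene.
H2-T23: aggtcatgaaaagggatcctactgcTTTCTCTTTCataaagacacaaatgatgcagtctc
Trim30a: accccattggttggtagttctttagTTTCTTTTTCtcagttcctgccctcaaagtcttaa
Gbp2: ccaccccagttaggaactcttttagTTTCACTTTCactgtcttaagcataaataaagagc
A match is a description of these letters and not a bound site. Fewer than 80% of the 41 interferon-stimulated genes had a promoter in the table, so no share is given for them.

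Complement genes showed the same direction. The first component of complement, C1, joins recognition and protease subunits, and Serping1 is the inhibitor of its proteases. Of 24 complement genes 15 were tested, 13 of them rose in WT cells and 11 in KO cells, 7 were lower in the interaction and none was higher, with a median of −0.55. Serping1 (ENSMUSG00000023224, GRCm38 chromosome 2, 84765387 to 84775444, minus strand) increased in WT cells from 6.43, 7.04 and 4.79 to 84.9, 90.3 and 84.5 CPM, and in KO cells from 7.64, 10.7 and 9.57 to 55.9, 64.4 and 53.4 CPM. Every WT senescent library was above every KO senescent library, and the interaction was −1.19 ± 0.17, adjusted p 0.000233. The protease C1s1 reached 101, 101 and 100.1 CPM in WT senescent and 60.4, 65.6 and 51.3 CPM in KO senescent cells from overlapping control levels (−1.23 ± 0.21, adjusted p 0.00251), with exons that overlap another gene. C1rl, a C1r-like protease, rose in WT cells only (1.26) and was −0.20 in KO cells (−1.46 ± 0.28, adjusted p 0.0015). The count was 5 without WT control replicate 3, as it was without several other single libraries, and 5 to 8 over the fits without 1 library.

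Cartilage genes had the largest share of lower members of the 48 lists. Ear tissue contains elastic cartilage beside dermis, and cartilage cells make collagens II, IX and XI, aggrecan and their binding proteins under the transcription factor Sox9. Of 33 genes of cartilage matrix and its regulators 32 were tested, 23 were lower in the interaction, 20 of these were called, and none was higher. The median senescence change was −0.62 in WT cells and −1.66 in KO cells, and the median interaction was −1.16. The count was 20 without WT control replicate 3 and 18 to 24 over the fits without 1 library.

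Cnmd, a cartilage glycoprotein that blocks vessel growth (ENSMUSG00000022025, GRCm38 chromosome 14, 79637690 to 79662170, minus strand), was measured at 381, 507 and 371 CPM in the control and 54.2, 53.9 and 60 CPM in the senescent libraries of WT cells and at 168, 287 and 262 CPM in the control and 6.79, 5.57 and 5.03 CPM in the senescent libraries of KO cells. The KO libraries were below the WT libraries in both states, and the gap widened from −0.81 to −3.28 on the log2 scale. The interaction was −2.46 ± 0.33, adjusted p 0.0013. Col9a1, a chain of collagen IX, fell to 21.7 ± 2.38 CPM in WT and to 3.12 ± 0.827 CPM in KO senescent cells (−2.14 ± 0.41, adjusted p 0.00718). Matn3, a matrilin of cartilage, had an interaction of −2.36 ± 0.60, adjusted p 0.0164, which did not pass without KO senescent replicate 2 (−2.23, adjusted p 0.0614) or KO senescent replicate 3 (−2.03, 0.0827).

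Acan, Col2a1 and Sox9 were chosen after their values were seen, as the defining genes of the tissue. Acan, which encodes aggrecan, was measured at 1925, 2310.0 and 1901 CPM in the control and 423, 418 and 449.8 CPM in the senescent libraries of WT cells and at 1792, 2270.1 and 2169 CPM in the control and 153, 159 and 128 CPM in the senescent libraries of KO cells. Its control levels overlapped between the genotypes while every KO senescent library was below every WT senescent one, and the interaction was −1.57 ± 0.15, adjusted p 5.12e-05. Col2a1, collagen II, fell in WT cells from 4778, 5563 and 4523 to 1263, 1364 and 1509 CPM, and in KO cells from 2489.7, 3491 and 3112 to 459, 467 and 417 CPM (−0.91 ± 0.18, adjusted p 0.00504). Sox9 was measured at 249.8, 288 and 251 CPM in the control and 199.9, 221 and 237 CPM in the senescent libraries of WT cells and at 255, 305 and 295 CPM in the control and 91.8, 99.8 and 81.9 CPM in the senescent libraries of KO cells. It fell by 0.26 in WT cells and fell by 1.64 in KO cells, and the KO senescent libraries were the lowest of all groups (−1.38 ± 0.12, adjusted p 7.73e-06).

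The 7 tested markers of chondrocytes, such as Acan, Col2a1, Col9a1 and Cnmd, are also members of the cartilage list. Their values therefore restate that list and are not a second observation. The summed level of 8 chondrocyte markers was 6980 to 8640 CPM in WT control libraries, 1800 to 2090 CPM in WT senescent, 4560 to 6240 CPM in KO control and 567 to 651 CPM in KO senescent libraries. Of the 7 markers tested all 7 were lower in the interaction and 6 of them were called, and 5 were lower without WT control replicate 3. In bulk RNA a smaller share of chondrocytes among the KO senescent cells and less cartilage RNA per cell cannot be told apart. The part of this cell type in the results for other matrix genes was not tested.

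**Figure D3:**
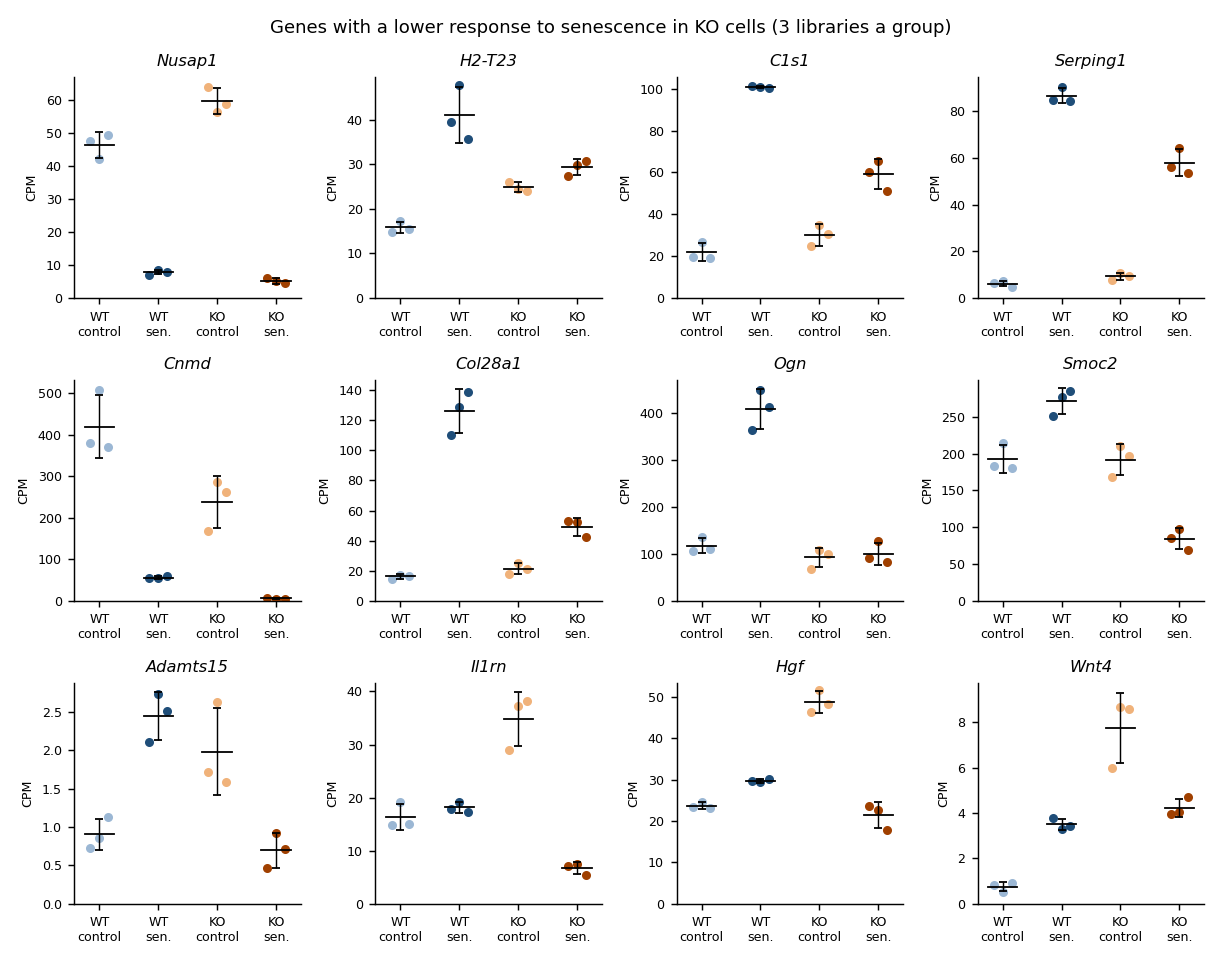
Levels (CPM, linear axes from 0) of 12 genes with a negative interaction in the 12 libraries, 1 panel per gene, with points for libraries and a line and error bar for the group mean and SD. In KO senescent libraries Cnmd lay at 5.03 to 6.79 CPM against 53.9 to 60.0 CPM in WT senescent ones, and Hgf at 17.9 to 23.7 CPM against 29.3 to 30.2 CPM.

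Fibrous matrix genes were lower more often than higher. Of 28 collagens outside cartilage 12 were lower and 3 higher (median −0.31), of 13 small leucine-rich proteoglycans 6 were lower and 1 higher (−0.29), and of 22 genes of elastic fibres and lysyl oxidases 13 were lower and 1 higher (−0.26). In 2 of these lists the KO control level was often already raised. Among control cells 14 of the 28 collagens were above WT and none was below (median difference 0.38), and among senescent cells 10 were above and 7 below (−0.09). Of the elastic fibre genes 12 were above and 2 below among control cells (0.18), and 6 above and 10 below among senescent cells (−0.20). Col28a1 (ENSMUSG00000068794, GRCm38 chromosome 6, 7997808 to 8192617, minus strand) increased in WT cells from 14.8, 17.5 and 16.3 to 111, 129 and 139 CPM, and in KO cells from 17.6, 25.1 and 21.2 to 53.3, 52.2 and 42.3 CPM, and the senescent groups did not overlap (−1.76 ± 0.19, adjusted p 0.000129). Col14a1, a collagen of fibril surfaces, fell in KO cells (−2.34) and was −0.28 in WT cells (−2.06 ± 0.36, adjusted p 0.00402). Ogn, a small proteoglycan that shapes fibrils (ENSMUSG00000021390, GRCm38 chromosome 13, 49608046 to 49624501, plus strand), was measured at 106, 135 and 109 CPM in the control and 363, 448 and 411 CPM in the senescent libraries of WT cells and at 68.5, 108 and 100.2 CPM in the control and 92, 127 and 82.2 CPM in the senescent libraries of KO cells. Its WT senescent libraries stood above the other 3 groups, which overlapped (−1.68 ± 0.30, adjusted p 0.00532). Aspn, its relative, rose in WT cells (0.80) and fell in KO cells (−0.85; interaction −1.65 ± 0.26, adjusted p 0.00288).

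Smoc2, a calcium-binding matricellular protein, was measured at 183, 214 and 180.1 CPM in the control and 251, 277 and 286 CPM in the senescent libraries of WT cells and at 169, 209.8 and 197 CPM in the control and 86, 97.4 and 69.4 CPM in the senescent libraries of KO cells. It rose in WT cells and fell in KO cells, with overlapping controls (−1.68 ± 0.18, adjusted p 0.000132). Matricellular genes as a group went both ways, with 9 of 28 higher and 12 lower. An exception among the elastic fibre genes was Loxl2, a lysyl oxidase that crosslinks collagen and elastin, chosen after its values were seen. It fell by 1.75 in WT cells and fell by 0.69 in KO cells, so its interaction was positive, 1.05 ± 0.07, adjusted p 2.65e-08, although its exons overlap 2 other genes.

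Proteases and adhesion receptors were mixed. Of 22 ADAMTS proteases 8 were lower and none was higher (median −0.36). Adamts15, which cleaves versican and aggrecan, had 0.724, 0.855 and 1.13 CPM in the control and 2.11, 2.73 and 2.51 CPM in the senescent libraries of WT cells and 1.72, 2.63 and 1.59 CPM in the control and 0.463, 0.922 and 0.709 CPM in the senescent libraries of KO cells. It rose in WT cells and fell in KO cells, and the order of the genotypes was inverted between control and senescent cells without overlap (−2.94 ± 0.43, adjusted p 8.17e-05). Matrix metalloproteinases were 3 higher and 5 lower of 15. Mmp9, a gelatinase, rose in KO cells only, from 1.36, 1.45 and 1.2 to 5.25, 4.11 and 3.88 CPM, and was 0.23 in WT cells (1.48 ± 0.35, adjusted p 0.0044).

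Integrins link cells to this matrix, and 9 of 23 subunits were higher and 3 lower, the same counts of higher in every fit without 1 library, while the median over all 23 was −0.29. The members that were higher included Itgb3, a subunit of vitronectin receptors (0.98 ± 0.19, adjusted p 0.00332), Itga6, a subunit of laminin receptors (0.88 ± 0.13, adjusted p 0.000243), and Itga2, a subunit of a collagen receptor (0.85 ± 0.19, adjusted p 0.00339). All 3 had fallen in WT cells, with log2 fold changes of −1.54, −1.04 and −1.66. Gja1, the gap junction protein connexin 43, was measured at 146, 138 and 163 CPM in the control and 162, 140.4 and 137 CPM in the senescent libraries of WT cells and at 134, 95.6 and 103 CPM in the control and 262, 219.7 and 281 CPM in the senescent libraries of KO cells. It rose in KO cells only, and all KO senescent libraries were above all other libraries (1.22 ± 0.20, adjusted p 0.00201).

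Growth factors of the EGF family were among the genes that rose further in KO cells. These ligands are shed from the cell surface, bind EGFR and its relatives and signal through RAS and ERK. Of 15 family genes tested 4 were higher (Ereg, Hbegf, and the receptor inhibitors Lrig1 and Errfi1) and 2 lower (Egf and Erbb2), with a median of 0.66. The counts were the same without each library, while the median ranged from 0.29 (without KO control replicate 3) to 0.66.

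Ereg, which encodes epiregulin (ENSMUSG00000029377, GRCm38 chromosome 5, 91074622 to 91093646, plus strand), was measured at 150.0, 149.6 and 178 CPM in the control and 216, 194 and 191 CPM in the senescent libraries of WT cells and at 83.5, 69.1 and 68.2 CPM in the control and 260.5, 229 and 269 CPM in the senescent libraries of KO cells. KO control libraries were below every WT library and KO senescent libraries above all of them, and the interaction was 1.44 ± 0.13, adjusted p 7.73e-06. Hbegf, heparin-binding EGF, was measured at 69.3, 67.9 and 75.3 CPM in the control and 111, 99.6 and 92.7 CPM in the senescent libraries of WT cells and at 59.9, 36.5 and 41.9 CPM in the control and 179, 170.0 and 214 CPM in the senescent libraries of KO cells. Its KO senescent libraries stood above all others (1.51 ± 0.24, adjusted p 0.00263). Lrig1, which removes EGFR from the surface and was chosen after its values were seen, fell in WT cells (−0.46) and rose in KO cells (0.61; interaction 1.07 ± 0.17, adjusted p 0.00127). Egf itself, at 1.12 to 2.82 CPM in all libraries, rose in WT cells (0.73) and fell in KO cells (−0.60; interaction −1.33 ± 0.36, adjusted p 0.0115).

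Lif and Il11, cytokines related to interleukin 6, also rose further in KO cells. Lif, which acts through the gp130 receptor (ENSMUSG00000034394, GRCm38 chromosome 11, 4257557 to 4272514, plus strand), was measured at 9.45, 10.4 and 9.48 CPM in the control and 28.2, 21.9 and 21.5 CPM in the senescent libraries of WT cells and at 6.6, 3.94 and 5.41 CPM in the control and 37.6, 33.8 and 45.3 CPM in the senescent libraries of KO cells. The groups did not overlap, with KO the lower in control cells and the higher in senescent cells (1.60 ± 0.23, adjusted p 0.000401). Il11, another gp130 cytokine, increased in WT cells from 12.2, 16.7 and 15.2 to 29.5, 21.2 and 22.1 CPM, and in KO cells from 11.6, 8.25 and 6.4 to 34.3, 30.6 and 35.4 CPM (1.20 ± 0.28, adjusted p 0.0125). Il6 itself, chosen after its values were seen, had an interaction of −0.25 ± 0.22, adjusted p 0.454. Pdgfb, the platelet-derived growth factor that recruits mesenchymal cells, was measured at 0.684, 1.22 and 1.31 CPM in the control and 2.89, 3.27 and 2.35 CPM in the senescent libraries of WT cells and at 0.52, 0.303 and 0.129 CPM in the control and 4.13, 3.79 and 3.95 CPM in the senescent libraries of KO cells. Its rise was larger in KO cells (interaction 2.20 ± 0.46, adjusted p 0.00186), and KO control libraries were below all others.

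Other secreted regulators were lower. Il1rn, the antagonist of the interleukin 1 receptor (ENSMUSG00000026981, GRCm38 chromosome 2, 24336853 to 24351494, plus strand), was measured at 14.8, 19.1 and 15.1 CPM in the control and 17.9, 19.3 and 17.3 CPM in the senescent libraries of WT cells and at 28.9, 37.2 and 38.2 CPM in the control and 7.18, 7.52 and 5.44 CPM in the senescent libraries of KO cells. KO control libraries were above and KO senescent libraries below all WT libraries, the WT change did not pass (0.15), and the interaction was −2.53 ± 0.18, adjusted p 2.89e-07. Hgf, the ligand of the MET receptor (ENSMUSG00000028864, GRCm38 chromosome 5, 16553495 to 16620152, plus strand), was measured at 23.4, 24.6 and 23.2 CPM in the control and 29.6, 29.3 and 30.2 CPM in the senescent libraries of WT cells and at 46.3, 51.7 and 48.2 CPM in the control and 23.7, 22.6 and 17.9 CPM in the senescent libraries of KO cells. It rose in WT cells and fell in KO cells, where the control libraries were above every WT library (−1.52 ± 0.12, adjusted p 1.64e-07). Over the whole list of 38 FGF, HGF, VEGF and PDGF genes 9 were higher and 9 lower (median 0.13), and over 25 interleukins and colony-stimulating factors 5 were higher and 7 lower (−0.25).

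Wnt4, a signalling ligand of the WNT family, was measured at 0.804, 0.529 and 0.903 CPM in the control and 3.78, 3.3 and 3.43 CPM in the senescent libraries of WT cells and at 5.96, 8.69 and 8.59 CPM in the control and 3.98, 4.04 and 4.69 CPM in the senescent libraries of KO cells. KO control cells held it at the highest level of all groups, the senescent levels differed by 0.28 (adjusted p 0.318), and the interaction of −3.10 ± 0.30, adjusted p 1.05e-06 came with a difference of 3.38 between the control groups. The secreted WNT inhibitor Sfrp1 rose by 3.52 in WT cells and by 1.66 in KO cells (−1.87 ± 0.26, adjusted p 0.00126), again with a higher KO control level (1.52). Among 32 WNT ligands and antagonists 5 were higher and 6 lower.

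Genes that respond to ERK were examined because of the EGF ligands, in a list written after values were seen and therefore only a description. Of 23 such genes 13 were higher and 2 lower, with a median of 0.47, and 10 to 13 were higher in the fits without 1 library. Dusp1, a phosphatase that switches off MAP kinases (ENSMUSG00000024190, GRCm38 chromosome 17, 26505590 to 26562128, minus strand), was measured at 70.1, 66.5 and 78.4 CPM in the control and 127, 129.6 and 132 CPM in the senescent libraries of WT cells and at 44.9, 41 and 43.7 CPM in the control and 139, 141 and 150.5 CPM in the senescent libraries of KO cells. KO control libraries were below all WT libraries and KO senescent libraries above all of them (0.88 ± 0.08, adjusted p 1.07e-06). Dusp1 is counted here among glucocorticoid receptor targets, of which 5 were higher and 3 lower of 22 (median 0.08; 5 lower without replicate 1 of the WT senescent or KO control cells or replicate 2 of the KO senescent cells), and all cells had received dexamethasone. Dusp5 (0.95 ± 0.16, adjusted p 0.00044) and Spry1 (0.94 ± 0.22, adjusted p 0.00413), feedback inhibitors of the ERK pathway, and the growth regulator Myc (0.88 ± 0.14, adjusted p 0.000633) were higher. Myc fell in WT cells (−0.50) and rose in KO cells (0.38).

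**Figure D4:**
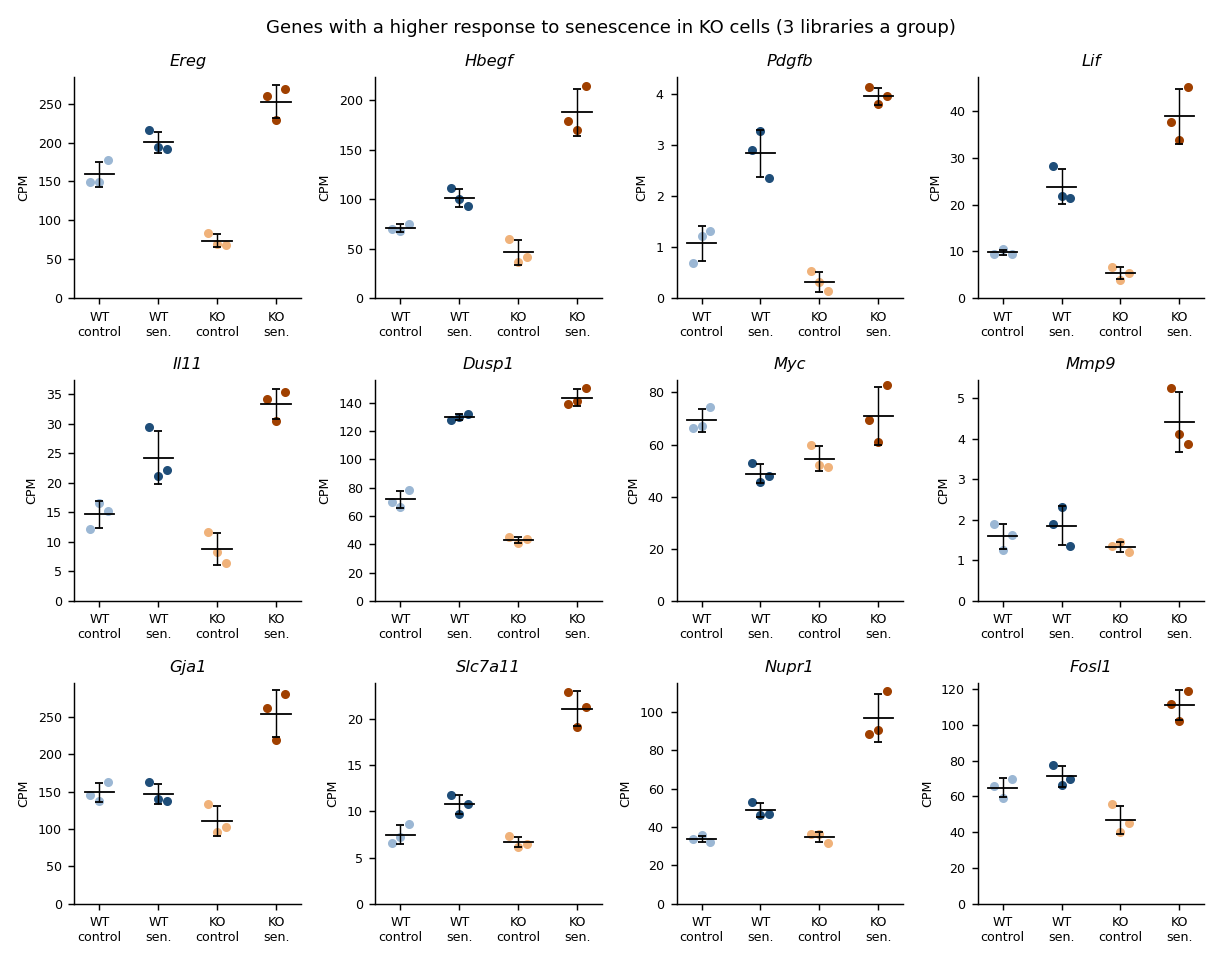
Levels (CPM, linear axes from 0) of 12 genes with a positive interaction in the 12 libraries, 1 panel per gene, with points for libraries and a line and error bar for the group mean and SD. Ereg lay at 68.2 to 83.5 CPM in KO control libraries and at 229 to 269 CPM in KO senescent ones, against 149.6 to 178 and 191 to 216 CPM in WT cells.

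Targets of YAP and TEAD, counted in another list added after values were seen, were 9 higher and 3 lower of 23 (median 0.28). Among control cells KO was below WT for 12 of the 23 and above for 1 (median difference −0.25). Among senescent cells KO was above WT for 4 and below for 5 (−0.02). Ankrd1, a muscle ankyrin repeat protein and a common reporter of YAP, rose to 65.9 ± 5.28 CPM in WT and to 140.0 ± 18.7 CPM in KO senescent cells (1.33 ± 0.24, adjusted p 0.00458). The AP-1 subunits, which act downstream of ERK, were 5 higher and 4 lower of 17, with a median of −0.11 that was 0.04 without WT control replicate 3. The study examined AP-1 motifs at BMAL1 sites, AP-1 target genes and c-Jun protein, none of which these subunit RNAs measure. Fosl1, the FRA1 subunit, rose in KO cells only, from 55.5, 40.2 and 45 to 112, 102 and 119 CPM, against 65.7, 59.2 and 69.9 and 77.7, 66.6 and 69.5 CPM in WT cells (1.11 ± 0.15, adjusted p 0.000294). NF-kB subunits and inhibitors were 3 higher and 3 lower of 18 (median 0.06), but the count of higher genes rested on single libraries. None was higher without replicate 1 or 3 of the WT senescent cells or replicate 2 of the KO controls, 1 was higher without replicate 3 of the WT controls or KO senescent cells or replicate 2 of the WT senescent cells, and 5 were higher with another scaling.

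Other signalling families gave smaller counts. TGF-beta and activin genes were 6 higher and 5 lower of 22 (median −0.04, or 0.01 without KO senescent replicate 3), and Inhba, the subunit of activin A, was measured at 89.6, 108 and 100.4 CPM in the control and 128, 107 and 113 CPM in the senescent libraries of WT cells and at 96.8, 82.4 and 88.1 CPM in the control and 181, 172 and 179 CPM in the senescent libraries of KO cells. All KO senescent libraries were above all others (0.77 ± 0.10, adjusted p 7.42e-05). BMP genes were 2 higher and 8 lower of 31 (−0.22), and the BMP ligand Gdf5 rose in KO cells only, from 2.04, 1.28 and 1.37 to 5.4, 5.39 and 7.33 CPM (1.91 ± 0.34, adjusted p 0.000576), with 0.05 in WT cells. IGF genes were 3 higher and 5 lower of 19 (−0.32), with 1 higher without WT control replicate 1 or KO control replicate 3. Of 20 imprinted growth genes 9 were lower and none higher (−0.29), with 3 lower without KO control replicate 2 or 3, 4 without replicate 1 or 3 of the WT controls or replicate 2 of the WT senescent cells, and 5 without WT senescent replicate 3. Among 17 genes of lamins, the nuclear envelope and HMG proteins 4 were higher and 3 lower (0.00). Of these 1 was higher without WT senescent replicate 2 or KO control replicate 3 and 2 without KO control replicate 2, and 1 was lower without replicate 2 of any of the 4 groups or replicate 3 of the WT senescent cells. Hmga2, a chromatin protein of proliferating mesenchyme, rose in KO cells only (0.83) with −0.14 in WT cells (0.97 ± 0.19, adjusted p 0.00658).

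Genes of the amino acid response had the largest share of higher members of the 48 lists. ATF4 is translated when amino acids run short or proteins misfold, and it induces amino acid transporters, tRNA synthetases and the enzymes of serine and asparagine synthesis. Of 30 such genes 21 were higher and 2 lower (Cebpb and Sesn2), with a median of 0.40. Most of these genes fell with senescence in WT cells (22 fell and 6 rose), and in KO cells 14 fell and 11 rose. The median change was −0.45 in WT cells and −0.04 in KO cells. The count of higher genes was 18 without WT control replicate 3 and 16 to 22 over the fits without 1 library.

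Slc7a11, the cystine importer (ENSMUSG00000027737, GRCm38 chromosome 3, 49892526 to 50443614, minus strand), was measured at 6.6, 7.21 and 8.62 CPM in the control and 11.8, 9.76 and 10.8 CPM in the senescent libraries of WT cells and at 7.32, 6.2 and 6.53 CPM in the control and 23, 19.1 and 21.4 CPM in the senescent libraries of KO cells. The control groups overlapped and every KO senescent library was above all others (1.13 ± 0.17, adjusted p 0.000107). Nupr1, a stress-induced chromatin protein (ENSMUSG00000030717, GRCm38 chromosome 7, 126623249 to 126630861, minus strand), was measured at 33.6, 35.6 and 32.3 CPM in the control and 53.1, 46.2 and 47 CPM in the senescent libraries of WT cells and at 36.6, 36.3 and 31.7 CPM in the control and 88.3, 90.7 and 111 CPM in the senescent libraries of KO cells, with the same order of groups (0.94 ± 0.12, adjusted p 4.69e-05). Atf4 itself changed by −0.36 in WT cells and by −0.06 in KO cells (0.29 ± 0.07, adjusted p 0.00417). The biosynthetic enzymes Psat1 and Phgdh of serine and Asns of asparagine fell in both genotypes but less in KO cells (0.60 ± 0.10, adjusted p 0.000267, 0.53 ± 0.10, adjusted p 0.00077 and 0.41 ± 0.08, adjusted p 0.00107, in that order). Atf4 and these 3 enzymes were chosen after their values were seen.

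ATF4 binds composite sites with C/EBP proteins, written here as TGATGCAA on either strand. This motif was in 72 of 12041 promoters (0.598%) and in 7 of the 25 matched promoters of the 30 genes (28.0%). Of those 7 genes Chac1, Nupr1, Slc7a11 and Yars passed the interaction. In the whole list of 30 genes 21 were higher and 2 lower, so genes with the motif did not pass more often than the list. Whether the motif had a part in the values of these genes was not tested. The promoters of Slc7a11 and Nupr1 are shown because the levels of these 2 genes were given above. They lie at chr3:50443628-50443704 for Slc7a11 and chr7:126625548-126625605 for Nupr1, both on the minus strand of GRCm38.p6 as RefSeq gives them. The motif is in capitals and begins at positions −66 and −47 from the start of Slc7a11, in opposite orientations, and at −110 from that of Nupr1. The RefSeq start of Nupr1 lies inside the longer GENCODE span given above, and the stretch shown is within that span.
Slc7a11: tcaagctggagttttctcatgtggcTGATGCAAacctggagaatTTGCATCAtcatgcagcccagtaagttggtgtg
Nupr1: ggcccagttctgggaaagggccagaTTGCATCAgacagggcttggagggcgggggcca

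Neighbouring functions moved less. Of 22 chaperones of the unfolded protein response, all of which fell in WT cells, 9 were higher and none lower (median 0.21), with 5 higher when KO control replicate 2, KO control replicate 3 or WT senescent replicate 2 was left out. Among control cells KO was below WT for 11 of the 22 and above for none (median difference −0.18). Among senescent cells KO was above WT for 4 and below for 3. Hspa5, the main chaperone of the endoplasmic reticulum, fell in WT cells from 2708, 2909 and 2892 to 1284, 1269 and 1279 CPM, and in KO cells from 2315, 2334 and 2288 to 1349, 1354 and 1438 CPM (0.41 ± 0.07, adjusted p 0.000199). Of 78 ribosomal protein genes 4 were higher and none lower (median 0.15). That count was 33 without KO control replicate 1, 18 without KO senescent replicate 1, 1 without KO senescent replicate 2 or 3, 0 without replicate 1 or 3 of the WT controls, any WT senescent library or replicate 2 or 3 of the KO controls, and 9 with another scaling. Of 54 nuclear-encoded subunits of oxidative phosphorylation 5 were higher and none lower (0.10), with 8 higher without KO control replicate 1, 2 without KO control replicate 2, and 3 without replicate 1 of the WT senescent cells or replicate 3 of any other group. Of 13 mitochondrially encoded genes none passed. Lysosomal genes were 8 lower and none higher of 43 (−0.17), with 13 lower without KO control replicate 1. Genes of NRF2 and glutathione were 9 higher and 7 lower of 31 (0.06). Txnrd1, a thioredoxin reductase, fell in WT cells (−0.36) and rose in KO cells (0.50), with an interaction of 0.87 ± 0.11, adjusted p 3.3e-05. Genes of glycolysis and hypoxia were 1 higher and 8 lower of 33 (−0.04), with 3 higher without KO control replicate 1. Those of cholesterol synthesis were 2 higher and 7 lower of 26 (−0.16), but 3 were lower without KO senescent replicate 1 and 4 without any 1 of the WT senescent libraries, replicate 2 or 3 of the KO controls or replicate 2 of the KO senescent cells. KO levels of these genes were above WT for 18 and below for none among control cells (median difference 0.35). They were above for 13 and below for none among senescent cells (0.19).

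Clock genes showed no common direction. Of 26 genes 3 were higher (Arntl, Nr1d1 and Csnk1e) and 6 lower (Dbp, Per2 and Per3 among them), with a median of 0.00, and without WT control replicate 3 these counts were 5 and 5. All cells were collected at 1 time after the reset, so a shift in phase and a change in level cannot be told apart. The study reported that core clock genes lacked rhythm in KO cells. In WT cells it reported longer periods of Bmal1 and Per2 with senescence. Per2, a repressor of BMAL1 and CLOCK (ENSMUSG00000055866, GRCm38 chromosome 1, 91415982 to 91459324, minus strand), was measured at 1.69, 1.79 and 1.13 CPM in the control and 4.32, 4.68 and 3.51 CPM in the senescent libraries of WT cells and at 12.8, 13.3 and 12.3 CPM in the control and 17.2, 16.7 and 15.1 CPM in the senescent libraries of KO cells. KO libraries were above all WT libraries in both states, and the rise was smaller in KO cells (−1.08 ± 0.21, adjusted p 0.0011). Per3 (ENSMUSG00000028957, GRCm38 chromosome 4, 151003652 to 151044665, minus strand) was measured at 5.23, 5.17 and 3.48 CPM in the control and 8.67, 8.72 and 7.49 CPM in the senescent libraries of WT cells and at 3.8, 4.65 and 4.94 CPM in the control and 3.7, 4.04 and 4.36 CPM in the senescent libraries of KO cells. It rose in WT cells only, and the WT senescent libraries stood above all others (−0.98 ± 0.24, adjusted p 0.00544). Dbp, a D-box binding factor and direct output of the clock, rose in WT cells only (1.31) and was 0.21 in KO cells (−1.11 ± 0.31, adjusted p 0.0142). Without KO control replicate 2 its interaction was −0.88 with adjusted p 0.0554. The REV-ERB genes, chosen after their values were seen, parted from each other. Nr1d1 was higher (0.67 ± 0.15, adjusted p 0.00344), rising from 3.88, 4.65 and 3.86 to 11.8, 12 and 12.5 CPM in KO cells and from 18.3, 20.7 and 15.2 to 33.1, 32.6 and 33.8 CPM in WT cells, and Nr1d2 was lower (−0.57 ± 0.14, adjusted p 0.00703).

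Dbp and Tef bind the D-box, TTATGTAA on either strand, which was in 63 of 12041 promoters (0.523%). It occurred in the promoter of Per3 at positions −205 and −158 from the start site. Whether D-box factors had a part in the values of Per3 was not tested. This promoter is shown because the levels of Per3 were given above. It lies at chr4:151044791-151044895 on the minus strand of GRCm38.p6, with the motif in capitals.
Per3: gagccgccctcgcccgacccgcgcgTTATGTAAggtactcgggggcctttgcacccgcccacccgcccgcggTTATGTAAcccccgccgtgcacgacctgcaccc

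Some genes responded in opposite directions. Among genes called in the interaction with a mean of at least 5 CPM, 48 passed in both genotypes with opposite signs, 13 of them rising in KO and falling in WT cells and 35 the reverse. The largest was Ntrk3, the receptor of neurotrophin 3 (ENSMUSG00000059146, GRCm38 chromosome 7, 78175959 to 78738012, minus strand), which was measured at 5.75, 5.62 and 4.38 CPM in the control and 7.62, 6.84 and 7.1 CPM in the senescent libraries of WT cells and at 12.5, 14.9 and 14.4 CPM in the control and 4.28, 3.65 and 2.36 CPM in the senescent libraries of KO cells. KO control libraries were above all WT libraries and KO senescent libraries below all of them (−2.48 ± 0.24, adjusted p 1.05e-06). Kctd12, a subunit of GABA-B receptors, was measured at 28.4, 32.1 and 27.1 CPM in the control and 66.5, 69 and 72.8 CPM in the senescent libraries of WT cells and at 32.6, 44.7 and 42.9 CPM in the control and 25.4, 30.1 and 22.1 CPM in the senescent libraries of KO cells. Its WT senescent libraries were the highest (−1.88 ± 0.18, adjusted p 2.37e-05), with exons that overlap 2 genes. Fzd9, a WNT receptor, rose in WT cells by 0.80 on the log2 scale and fell by 1.17 in KO cells (−1.97 ± 0.35, adjusted p 0.0035). Casp12, a caspase of the endoplasmic reticulum (0.43 in WT and −1.40 in KO cells), the stretch-gated channel Piezo2 (1.04 and −0.75), the kinesin Kif26b (0.82 and −0.95) and Pcp4l1 (0.78 and −1.34) went the same way.

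**Figure D5:**
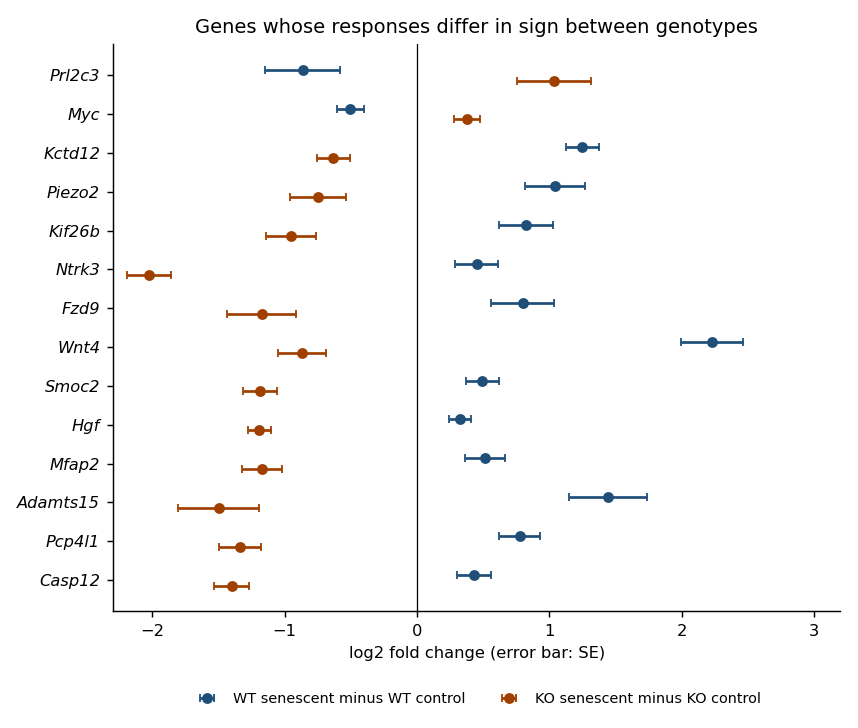
Log2 fold change from control to senescent cells, with its standard error, in WT and KO cells for 14 genes whose responses had opposite signs. Ntrk3 was 0.45 in WT and −2.03 in KO cells, and Smoc2 0.49 and −1.19.

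Of the opposite group, Tmcc3, a membrane protein of the endoplasmic reticulum, was measured at 15, 11.3 and 13.3 CPM in the control and 9.15, 8.65 and 9.3 CPM in the senescent libraries of WT cells and at 11.4, 11.9 and 10.9 CPM in the control and 23.6, 17.8 and 27.6 CPM in the senescent libraries of KO cells. It fell in WT cells and rose in KO cells, with overlapping controls (1.56 ± 0.19, adjusted p 2.45e-05). Prl2c3, a placental prolactin-like hormone whose count is uncertain because its neighbours are near copies, fell in WT cells (−0.86) and rose in KO cells (1.04; interaction 1.90 ± 0.40, adjusted p 0.0107).

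Among other genes with large differences were adhesion and signalling molecules. Nrcam, a neuronal cell adhesion molecule (ENSMUSG00000020598, GRCm38 chromosome 12, 44328885 to 44601964, plus strand), was measured at 3.42, 4.36 and 3.57 CPM in the control and 17.3, 15 and 12.8 CPM in the senescent libraries of WT cells and at 3.4, 3.4 and 3.43 CPM in the control and 55.7, 43.5 and 66.3 CPM in the senescent libraries of KO cells. The control groups overlapped, and the KO senescent libraries were all above the WT senescent ones (2.02 ± 0.25, adjusted p 7.39e-05). Fgd3, an exchange factor for the GTPase CDC42, increased in WT cells from 32.3, 30.5 and 36.4 to 58.2, 48.3 and 48.8 CPM, and in KO cells from 31, 24.2 and 25.6 to 138, 129 and 134 CPM (1.67 ± 0.13, adjusted p 7.29e-07). Pappa2, a protease that frees insulin-like growth factors, rose in WT cells only (2.24) and reached the level that KO cells held in both states (−2.21 ± 0.26, adjusted p 3.3e-05). Cadm1, an adhesion molecule, was measured at 7.4, 7.98 and 2.26 CPM in the control and 8.13, 7.47 and 5.83 CPM in the senescent libraries of WT cells, with WT control replicate 3 near the KO controls, and its interaction of 1.68 ± 0.50, adjusted p 0.0383 did not pass in 11 of the 12 fits without 1 library. Without WT control replicate 3 it was 2.05 with adjusted p 5.57e-06.

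Position beside the targeted gene was also counted. Of 171 genes tested within 10 Mb of Arntl on chromosome 7, 10 were called (5.85%), and over whole chromosomes the share called ranged from 2.51% to 4.98%. Whether DNA carried along with the knockout allele had a part in these 10 genes was not tested.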

How the data were processed

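Gene expression was measured by RNA-seq of poly(A) RNA in 12 libraries of MAFs, 3 in each of 4 groups taken from the deposited titles and genotypes. The deposited values were raw counts, whole numbers that the authors obtained for each gene from paired Illumina reads with Trimmomatic 0.36, STAR 2.5.2b on GRCm38 and featureCounts on uniquely mapped reads in exons. The use of strand and the annotation release are not given in the sources used here, so genes that overlap another gene or have near copies are uncertain (36.9% of genes tested have exons that overlap another gene). The counts came as 1 table per genotype, so handling and genotype cannot be told apart. An effect that is equal on the log2 scale in control and senescent libraries of 1 genotype drops out of the interaction. Any effect that differs between the states of a genotype stays in it. All columns were assigned to a library.

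Genes were kept with filterByExpr and fitted in R 4.3.3 with edgeR 4.0.16 (TMM, robust quasi-likelihood F-test, 1 mean per group, 12 libraries). P-values were adjusted by Benjamini-Hochberg over all 17416 genes tested, and the standard error is the log2 difference divided by the square root of F, in size. Replicates of a group varied by a median of 8.56% (coefficient of variation). Detection floors cover counting error only, since the reads carried no molecular identifiers. Alternatives were DESeq2 1.42.0, other scalings and filters, replicate blocks, limma 3.58.1 with voom weights, and leaving out each library.

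The gene lists and naming rule were chosen with earlier results of these data known. Named were, per direction, the 12 called genes with the largest interaction at a mean of at least 5 CPM, up to 3 members per list with the largest interaction at adjusted p under 0.05 and a mean of at least 1 CPM, Arntl, and 8 called genes with opposite responses. Others are said to be chosen after their values were seen. Some genes the rule selected are not reported here. Gene coordinates come from GENCODE M21 and promoters from RefSeq, matched by symbol and chromosome.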

Additional observations from a re-analysis of the deposited data

Results flagged for a closer look

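The responses of the genotypes to senescence differed by the interaction test for 200 genes called higher and 437 called lower, and for 1609 higher and 2030 lower at adjusted p alone. The values below are interactions on the log2 scale, and each passed the test of the difference itself. Among the higher genes these were Ces2e 2.94, Adcyap1r1 2.52, Nrcam 2.02, Prl2c3 1.90, Crct1 1.85, Cadm1 1.68, Fgd3 1.67, Lif 1.60, 2010300F17Rik 1.59, Tmcc3 1.56, Wnt11 1.54 and Arntl 0.82. The exons of 2010300F17Rik and Wnt11 overlap another gene each. Among the lower genes they were Cldn19 −3.28, Lrrc17 −2.62, Megf6 −2.56, Il1rn −2.53, Ntrk3 −2.48, Adamtsl1 −2.47, Cnmd −2.46, Ppp1r1b −2.38, Matn3 −2.36, Adamts16 −2.27, Greb1 −2.22, Pappa2 −2.21 and Pcp4l1 −2.11. The remaining genes with opposite responses were Fzd9 −1.97, Kctd12 −1.88, Casp12 −1.83, Piezo2 −1.79 and Kif26b −1.77.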

How the results depend on the processing

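Of 185 genes that the rule named, none changed sign under any alternative, and 140 kept their call in every setting and 165 in every setting with all libraries. Medians near 0 did change sign, as that over all genes (0.0041 with DESeq2 size factors) and those of the AP-1 and TGF-beta lists. Genes called higher numbered 346 without WT control replicate 3, beyond 1.5 times the 200 of the full fit, and 134 to 346 without 1 library. Genes called lower were 337 to 587, and at adjusted p alone 1079 to 1955 were higher and 1554 to 2298 lower. Calls split 31.4% higher with all libraries and 45.9% without WT control replicate 3. With all libraries, called counts were 174 to 284 higher and 386 to 534 lower over the scalings, filters, DESeq2 and voom.

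Replicate numbers showed no steady sign of pairing, which 3 libraries per group cannot exclude. Correlations of deviations between control and senescent libraries of the same number were −0.0154, 0.147 and 0.181 in WT and −0.18, 0.303 and −0.32 in KO cells. The largest between any numbers was 0.434, for KO control replicate 1 and KO senescent replicate 3. With a replicate block within each genotype 176 genes were called higher and 403 lower (1391 and 1853 at adjusted p alone), and with a block common to both genotypes 193 and 439 (1642 and 2059).

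With 3 libraries per group and a residual spread shared by all, small differences of low genes could not be resolved, and many counts of list members moved with single libraries.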
